A study of Mus musculus with 80 samples.

Results

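The 9 megakaryocyte and platelet genes followed here through the whole series were Itga2b, Itgb3, Pf4, Vwf, Selp, Gp9, Gp6, F2rl2 and Clec1b. They were taken by name, as the rows carrying these mouse symbols, and make up 9 of the 41388 genes of the age table. All 9 were present in both deposited tables, and the rule uses names alone.

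Megakaryocytes are the large marrow cells that shed platelets, and platelets stick to damaged vessel walls, activate and release the contents of their granules. Vwf tethers platelets through the GPIb-IX-V receptor complex, and the integrin of Itga2b and Itgb3 then binds fibrinogen to join platelets to each other. Some hematopoietic stem cells carry RNA of these genes before any visible commitment, and Itga2b (CD41) is a known surface marker of early blood cells.

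RNA was sequenced from mouse hematopoietic stem cells (HSC) and from hematopoietic progenitor cells (HPC), their more committed descendants, in 80 libraries of 20 groups, all on the B6 strain. The age series held HSC at E14.5 (3 libraries), E16.5 (4), E18.5 (3), P0 (4), P7 (4), P14 (4) and 8 weeks, called Adult (4), and HPC at E16.5 (3), P0 (4), P7 (4), P14 (5) and Adult (4), with no mutant allele in the labels. The genotype series held P0 HPC labelled Ifnar -/- (4) and wild type (4), P0 HSC labelled Ifnar -/- (4) and wild type (5), and P14 HPC of 4 genotypes. These were Ifnar -/-, Flt3 ITD/+ (5), Ifnar +/-, Flt3 ITD/+ (4), Ifnar -/-, Flt3 +/+ (4) and Ifnar +/-, Flt3 +/+ (4), where ITD is the internal tandem duplication of the Flt3 receptor gene known from leukemia. The P14 controls thus carried 1 mutant Ifnar allele too, and neither the sort markers, the organ nor the numbers of animals were given. Nothing says that libraries came from separate animals, so p-values measure the spread between these libraries, which may be technical. Codes in the titles of the age series begin with n in HSC at P0 and Adult and with na at P7 and P14. They begin with nb in HSC at E14.5, E16.5 and E18.5, and with another letter at each age of HPC. What the codes stand for is not given. Where they differ, code cannot be told apart from age or cell type. This holds for P0 over E18.5, P7 over P0 and Adult over E16.5 or P14 in HSC. It also holds between all HPC ages and for HSC against HPC.

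Libraries of the age series held 6.95 to 24.03 M reads in HSC and 7.91 to 25.38 M reads in HPC. Those of the genotype series held 11.68 to 14.72 M reads in P0 HPC, 37.04 to 46.3 M reads in P0 HSC and 58.4 to 92.1 M reads at P14. Ifnar1, a subunit of the interferon receptor, was not lower in libraries labelled Ifnar -/-, with a log2 fold change of 0.41 in P0 HPC (edgeR adjusted p = 0.0774) and 0.08 in P0 HSC (adjusted p = 0.873). Gene counts do not show whether part of a transcript is missing. The interferon-induced gene Irf7 was lower in those libraries, by a log2 fold change of -5.26 ± 0.26 in P0 HPC (SE, edgeR adjusted p = 1.2e-07) and -4.66 ± 0.33 in P0 HSC (adjusted p = 1.79e-06). The HSC markers Procr, Slamf1, Mecom, Hlf, Fgd5, Hoxb5, Kit and Ly6a summed to a higher level in every HSC library of the age series than in every HPC library of that series and age, at each of the 5 shared ages. Among the Ifnar -/- libraries at P0 they overlapped, with 323.8 to 468.9 RPKM in HSC and 245.1 to 347.5 RPKM in HPC. The closest were Adult, with 473.1 RPKM or more in HSC and 456 RPKM or less in HPC. Cell types are otherwise used as labelled.

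In the GENCODE M21 annotation of GRCm38, Itga2b (ENSMUSG00000034664, chromosome 11, 102453297 to 102470122, minus strand) and Itgb3 (ENSMUSG00000020689, chromosome 11, 104608000 to 104670476, plus strand) lie on the same chromosome. Pf4 (ENSMUSG00000029373) lies on chromosome 5, Selp (ENSMUSG00000026580) on chromosome 1, and Vwf (ENSMUSG00000001930), Gp9 (ENSMUSG00000030054) and Clec1b (ENSMUSG00000030159) on chromosome 6. Gp6 (ENSMUSG00000078810) lies on chromosome 7. F2rl2 (ENSMUSG00000021675) lies on chromosome 13 from 95696853 to 95702739 on the plus strand, inside the span of Iqgap2 on the minus strand. Whether the authors' counting used strand is not given, so reads of F2rl2 and Iqgap2 may mix, as may those of Selp and its antisense neighbour Gm16587 and those of Clec1b and Clec9a at their shared edge.

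RefSeq promoter windows on GRCm38.p6 were matched for 7 of the 9 genes. The 250 bases before the start are shown for Itga2b and Pf4, which rose with age in HSC and in Ifnar -/- HPC, for Selp, which fell and rose again, and for Gp9, which had the highest level of the 9 genes in HSC at every age of the age series. Capitals mark GATAA, the core that GATA factors read, and AGGAAG, a core of ETS factors, on either strand (TTATC and CTTCCT on the opposite strand).
Itga2b, chr11:102469884-102470133, minus strand: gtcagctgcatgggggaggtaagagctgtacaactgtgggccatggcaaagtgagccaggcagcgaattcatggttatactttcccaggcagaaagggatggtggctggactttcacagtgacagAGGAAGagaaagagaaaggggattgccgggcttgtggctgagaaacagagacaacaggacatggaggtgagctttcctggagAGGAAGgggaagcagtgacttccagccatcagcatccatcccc
Pf4, chr5:90772185-90772434, plus strand: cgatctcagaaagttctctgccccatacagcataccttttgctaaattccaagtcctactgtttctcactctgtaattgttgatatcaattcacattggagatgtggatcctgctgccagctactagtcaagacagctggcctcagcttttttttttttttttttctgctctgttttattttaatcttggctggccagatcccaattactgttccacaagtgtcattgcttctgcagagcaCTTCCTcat
Selp, chr1:164115014-164115263, plus strand: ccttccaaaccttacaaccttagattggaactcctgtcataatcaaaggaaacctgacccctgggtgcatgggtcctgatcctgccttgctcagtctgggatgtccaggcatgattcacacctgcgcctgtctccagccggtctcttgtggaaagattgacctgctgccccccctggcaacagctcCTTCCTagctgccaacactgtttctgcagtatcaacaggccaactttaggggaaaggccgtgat
Gp9, chr6:87777820-87778069, plus strand: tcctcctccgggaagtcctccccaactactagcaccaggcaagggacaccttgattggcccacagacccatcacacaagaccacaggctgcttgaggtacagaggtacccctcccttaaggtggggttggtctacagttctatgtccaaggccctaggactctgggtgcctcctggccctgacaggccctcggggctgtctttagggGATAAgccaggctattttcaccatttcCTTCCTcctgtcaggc
Itga2b held AGGAAG 125 and 43 bases before its start, counted to the first letter. Pf4 held it on the opposite strand at 9, Selp at 64 and Gp9 at 16 bases, and Gp9 also held GATAA at 43 bases. AGGAAG was found in 5 of the 7 windows and in 29.5% of 32851 promoters of the same length, and GATAA in 4 of 7 and in 22.6%. The motifs do not overlap each other in these windows.

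In HSC, RNA of the integrin pair and of Pf4 was about 8 to 9 times higher in adults than at E16.5, while Vwf, Gp9, Selp and F2rl2 were not called between these ages by limma. Selp was called lower in Adult when only these ages were fitted (-0.63, adjusted p = 0.0304), and DESeq2 on the recovered reads called Clec1b as the fourth gene. These folds are on the log2(RPKM + 0.5) scale, which understates those of low genes. Of the 9 genes, 7 passed the filter of more than 1 RPKM (counted reads per kilobase of exon, scaled to library size) in at least 3 HSC libraries, and Gp6 and Clec1b did not. Between Adult and E16.5, 3 of these 7 were higher and none lower at an adjusted p under 0.05 by limma, where 24.5% of the 13364 genes tested were called, 12.6% higher and 12% lower. The median log2 fold change was 1.12 over the 7 genes and 0.03 over all genes.

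Itga2b encodes the alpha chain of the fibrinogen receptor. It had 3.61, 2.34 and 3.83 RPKM at E14.5, 2.44, 1.74, 1.33 and 1.95 at E16.5, and 3.33, 1.77 and 1.66 at E18.5. It then had 4.79, 3.54, 3.20 and 4.72 RPKM at P0, 2.25, 3.51, 5.04 and 2.79 at P7, 3.42, 5.60, 3.75 and 3.48 at P14, and 13.4, 17.4, 21.2 and 22.7 in Adult. The adult libraries stood above every younger library, and all neighbouring ages below them in the order of means overlapped. The log2 fold change was 3.02 ± 0.24 for Adult over E16.5 (SE, limma adjusted p = 2.31e-10), 2.09 ± 0.24 for Adult over P0 (adjusted p = 3.21e-07) and 2.08 ± 0.24 for Adult over P14 (adjusted p = 1.74e-06).

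Itgb3 encodes the beta chain of the same receptor. Its level was 1.10, 1.26 and 0.481 RPKM at E14.5, 0.818, 0.763, 0.399 and 0.496 at E16.5, and 1.33, 1.39 and 1.19 at E18.5. It was 1.63, 1.16, 0.792 and 1.21 RPKM at P0, 0.650, 1.02, 0.595 and 0.510 at P7, 0.860, 0.839, 2.15 and 1.89 at P14, and 8.65, 7.98, 8.79 and 13.2 in Adult. Again the 4 adult libraries did not overlap any other age. Adult was higher than E16.5 by a log2 fold change of 3.19 ± 0.26 (limma adjusted p = 2.89e-10) and higher than P14 by 2.45 ± 0.26 (adjusted p = 2.91e-07). The mean levels of Itga2b and Itgb3 over the 7 ages correlated with a Pearson r of 0.94, a description over 7 points that share libraries and scaling.

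Pf4 encodes platelet factor 4, a chemokine stored in the alpha granules. Its level was 5.91, 14.8 and 9.96 RPKM at E14.5, 12.3, 9.61, 10.3 and 7.35 at E16.5, and 10.9, 16.7 and 19.4 at E18.5. After birth it was 29.2, 20.9, 33.6 and 26.1 RPKM at P0, 12.3, 22.6, 20.2 and 17.4 at P7, 43.0, 43.0, 116 and 50.2 at P14, and 83.0, 73.3, 97.9 and 106 in Adult. Pf4 was thus already high at P14, where the integrin pair was not, and the P14 and Adult ranges overlapped through the third P14 library. The log2 fold change was 1.67 ± 0.27 for P14 over P7 (limma adjusted p = 0.0015), 3.14 ± 0.27 for Adult over E16.5 (adjusted p = 1.13e-09) and 0.65 ± 0.27 for Adult over P14 (adjusted p = 0.194). Without the third P14 library the last value was 0.97 with an adjusted p of 0.0176.

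Vwf encodes von Willebrand factor, the adhesive protein of platelet and endothelial granules. Its group means lay between 3.90 RPKM at P14 and 9.30 RPKM at E18.5. At E18.5 its libraries had 6.517, 12.97 and 8.409 RPKM, and at P0 they had 4.29, 5.05, 3.63 and 4.42 RPKM. P0 was lower than E18.5 without overlap, by a log2 fold change of -0.95 ± 0.21 (limma adjusted p = 0.0074). That call was lost when only these ages were fitted (adjusted p = 0.0985) or without the second E18.5 library (adjusted p = 0.0816). Adult and E16.5 HSC had overlapping levels, of 4.83, 3.01, 4.91 and 4.96 RPKM in Adult and 4.158, 5.199, 6.567 and 5.797 RPKM at E16.5 (adjusted p = 0.357).

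Selp encodes P-selectin, a granule protein that platelets and endothelium move to their surface to catch leukocytes. It was highest before E18.5, with 7.96, 8.86 and 11.1 RPKM at E14.5, 7.93, 9.70, 10.8 and 13.1 at E16.5, and 4.02, 4.22 and 2.50 at E18.5. It had 5.84, 7.53, 6.34 and 7.05 RPKM at P0, 2.99, 5.51, 4.04 and 4.14 at P7, 1.86, 0.792, 0.493 and 2.66 at P14, and 5.72, 6.49, 8.33 and 5.28 in Adult. E18.5 lay below E16.5, P14 below P7, and Adult above P14, each without overlap. The log2 fold changes were -1.45 ± 0.29 for E18.5 over E16.5 (limma adjusted p = 0.0021), -1.38 ± 0.26 for P14 over P7 (adjusted p = 0.0049) and 1.98 ± 0.26 for Adult over P14 (adjusted p = 1.1e-05). The P14 call was lost when only P7 and P14 were fitted (adjusted p = 0.0694).

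Gp9, a small subunit of the GPIb-IX-V complex, had the highest level of the 9 genes at every age of HSC, with means of 111 RPKM at E14.5, 119 at E16.5, 124 at E18.5, 167 at P0, 175 at P7, 175 at P14 and 118 in Adult. Adult libraries had 108, 135, 104 and 125 RPKM, against 205, 191, 153 and 153 RPKM at P14. Adult was lower without overlap, by a log2 fold change of -0.55 ± 0.11 (limma adjusted p = 0.00249). P0 over E18.5 was 0.44 ± 0.12 (adjusted p = 0.0326), a call lost without any of 6 of the 7 libraries (adjusted p = 0.0682 to 0.11).

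F2rl2 encodes PAR3, a thrombin receptor of mouse platelets that serves as a cofactor for PAR4. Its libraries spread widely within ages, from 0 to 1.92 RPKM at E18.5 and from 0.0702 to 4.03 RPKM at P7, and its mean was 3.91 RPKM in Adult and 1.62 RPKM at E16.5. None of the 8 HSC age contrasts passed the test for it. Clec1b encodes CLEC-2, the platelet receptor for podoplanin, and its HSC libraries ran from 0 to 0.774 RPKM. Gp6, the collagen receptor GPVI, was listed at 0 in 24 of the 26 HSC libraries and at 0.426 RPKM in the third E14.5 and 0.319 RPKM in the first P0 library.

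**Figure D1:**
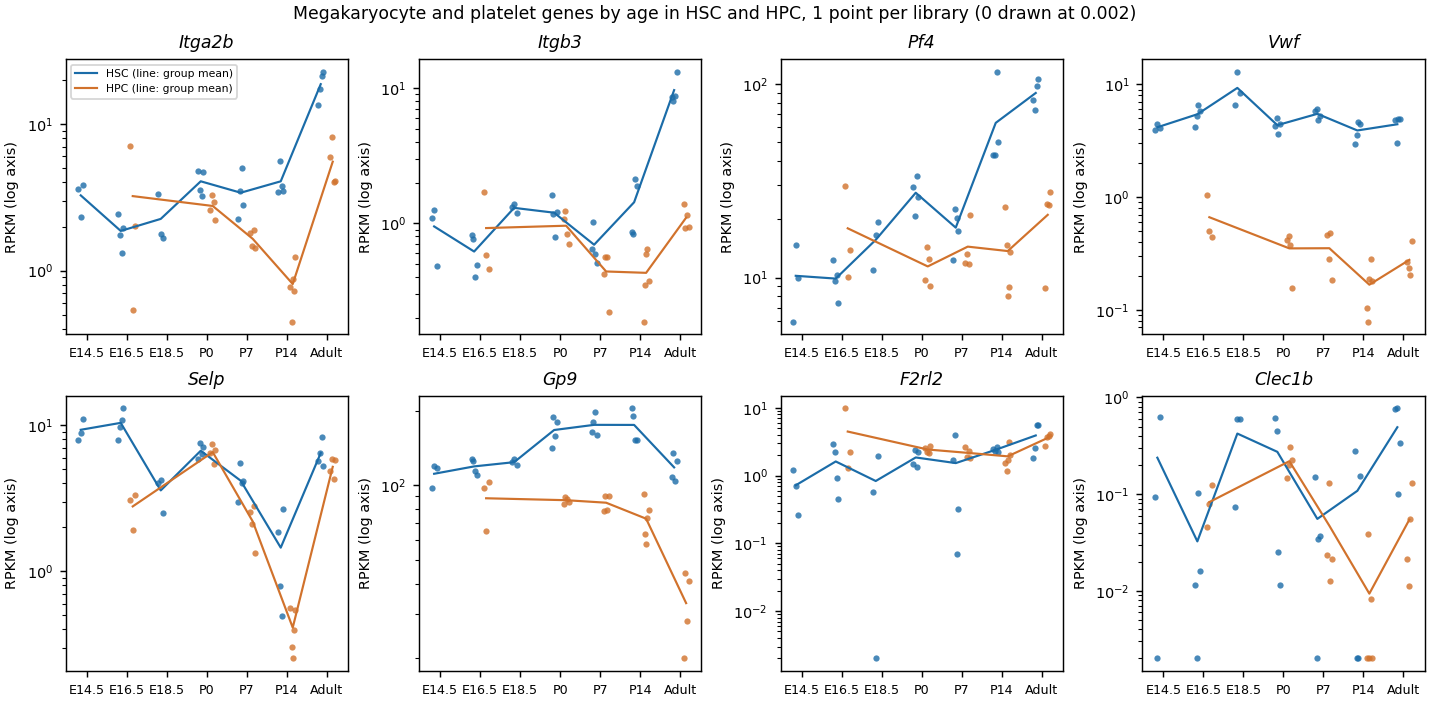
Level of 8 of the genes in RPKM (log axis) by age, 1 point per library, with lines through the group means of HSC (blue) and HPC (orange). Itga2b and Itgb3 stood apart in Adult HSC, Pf4 was high at P14 and Adult in HSC, Selp had its lowest mean at P14 in both cell types, and Vwf was higher in HSC than in HPC throughout.

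At the other steps of the HSC age series, between 0 and 4 of the 7 genes were called by limma. For Adult over P14, 3 were higher and 1 lower, where 5.31% of all genes were called, 2.32% higher and 2.99% lower. For Adult over P0, 3 were higher (10.7% of all genes) and Gp9 was lower (10.5%), with 21.2% called in all. For E18.5 over E16.5, Selp alone was lower, where 5.47% of all genes were called, 2.48% higher and 2.99% lower. For P0 over E18.5, Gp9 was higher (3.01% of all genes) and Vwf lower (1.82%), with 4.83% called in all. For P14 over P7, Pf4 was higher (0.636%) and Selp lower (1.08%), with 1.71% called in all. None was called for E16.5 over E14.5, where 0.0524% of all genes were called, although 1 of 7 had an unadjusted p under 0.05. None was called for P7 over P0 either (5.9% of all genes, 3.08% higher and 2.83% lower), with 2 of 7 under an unadjusted 0.05. DESeq2 and edgeR on the recovered reads also called 0 of the 7 at both of those steps.

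Other megakaryocyte and platelet genes were compared between Adult and E16.5 HSC, where 12.6% of all genes were called higher and 12% lower. Of 11 tested platelet receptors and membrane proteins, 4 were higher and 1 lower in Adult, led by Cd9 (log2 fold change 0.79), F2r (1.02), Gp5 (1.58) and Treml1 (1.63). Of 9 granule and secreted proteins 4 were higher, led by Thbs1 (2.65), Srgn (0.57) and Timp3 (1.4), and 2 were lower, led by Serpine2 (-1.41). Of 17 cytoskeletal and signalling genes 10 were higher and 1 lower, led by Cavin2 (3.44), Plek (2.95), Tbxas1 (0.68) and Tln1 (0.66). Of 9 transcription factors 5 were higher, led by Gfi1b (1.33), Gata2 (0.96) and Nfe2 (0.41), and Mef2c was lower (-0.57). The medians of these lists lay between 0.41 and 0.60, against 0.03 over all genes. These lists include genes with roles in many blood cells, such as Srgn, Tln1 and Runx1.

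Markers of HSC and of other cells also differed between these ages. The 8 HSC markers summed to 473.1 to 558.3 RPKM in Adult and 408.7 to 454.3 RPKM at E16.5, without overlap. The mature megakaryocyte and platelet markers Gp1ba, Gp1bb, Gp5, Ppbp, Tubb1 and Treml1 summed to 21.97 to 31.93 RPKM in Adult and 8.32 to 14.2 RPKM at E16.5 HSC, with Gp1bb at 0 in all E16.5 libraries, and 2 of the 5 tested were higher. Committed progenitor markers summed to 141 to 198 RPKM in Adult and 313 to 491 RPKM at E16.5, with 3 of 5 lower. Erythroid markers summed to 12.5 to 28.2 RPKM in Adult and 25.9 to 123 RPKM at E16.5, with 4 of 7 lower. Macrophage markers summed to 51.6 to 92.8 RPKM in Adult and 43.9 to 67.3 RPKM at E16.5, with 4 of 7 higher. Mast cell, hepatocyte and stroma marker sums were also higher and B cell sums lower in Adult without overlap, each at 17.67 RPKM or less. Reads of Y-linked genes appeared in 0 of the 4 Adult HSC libraries, in all 4 at E16.5, in all 4 at P0 and in 2 of the 4 at P14. Sex and age thus cannot be told apart in HSC for Adult over E16.5 or Adult over P0, and sex was uneven for Adult over P14. The part of the marker differences in the results was not tested. In bulk samples, fewer cells of a type and less RNA per cell cannot be told apart.

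**Figure D2:**
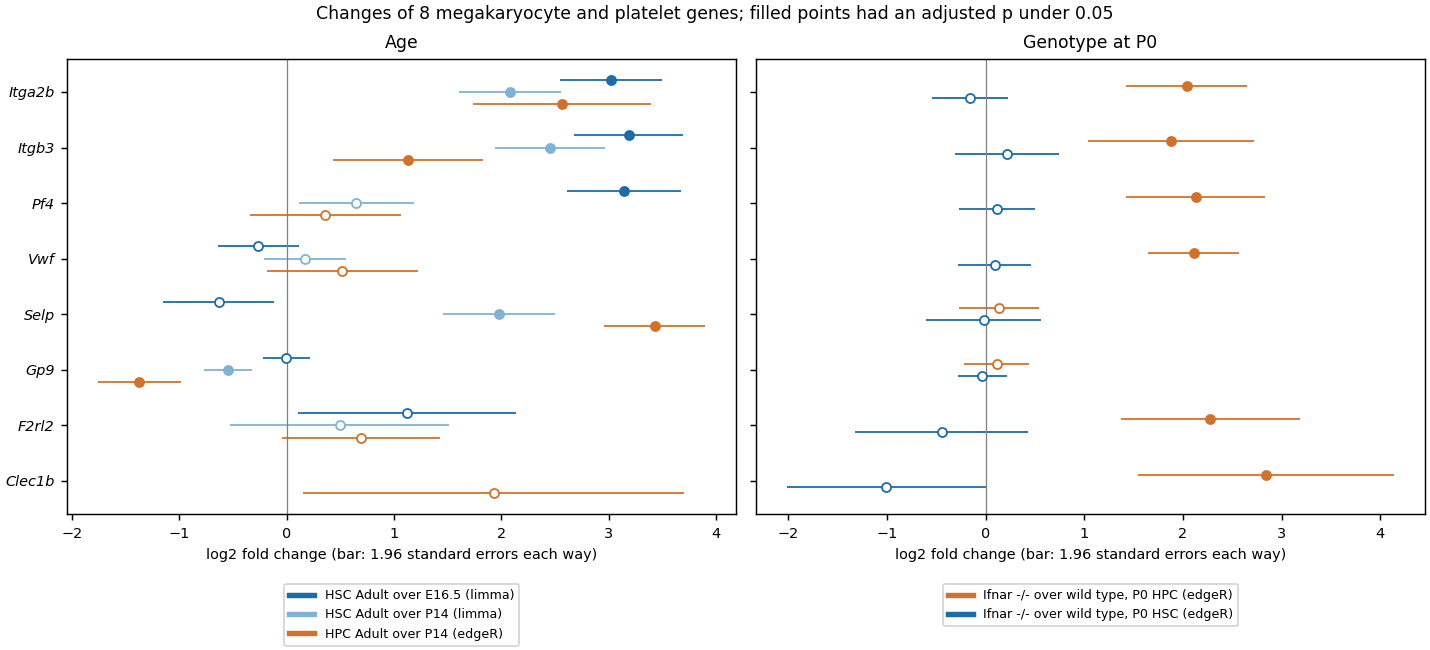
Log2 fold change of each gene (horizontal axis, bars for approximate 95% intervals) for Adult over E16.5 and over P14 in HSC and Adult over P14 in HPC (left), and for Ifnar -/- over wild type at P0 (right). Filled points had an adjusted p under 0.05: Itga2b and Itgb3 rose in all 3 age contrasts shown, and 6 genes rose in P0 HPC and none in P0 HSC.

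In HPC of the age series, Itga2b, Itgb3 and Selp were higher in Adult than at P14, where each had its lowest mean. For Itgb3 the mean at P7 was nearly the same, 0.441 RPKM against 0.431 RPKM at P14. Of 8 genes tested in HPC counts (Gp6 did not pass), 3 were higher and Gp9 was lower in Adult than at P14 by edgeR, where 28.9% of 14754 genes were called, 14.9% higher and 14% lower. Itga2b had 5.92, 8.09, 4.02 and 4.09 RPKM in Adult, against 0.773, 0.448, 0.872, 0.726 and 1.24 RPKM at P14. Selp had 4.88, 5.86, 4.29 and 5.74 RPKM in Adult, against 0.558, 0.303, 0.253, 0.397 and 0.544 RPKM at P14. Neither gene's ranges overlapped, and the log2 fold changes were 2.56 ± 0.42 for Itga2b (SE, edgeR adjusted p = 0.000227) and 3.43 ± 0.24 for Selp (adjusted p = 3.61e-09). The low Selp level at P14 was not seen in Ifnar +/-, Flt3 +/+ HPC of the genotype series. These had 1.30 to 3.79 RPKM of Selp at P14, above every P14 library of the age series. Selp ran from 0.429 to 2.135 RPKM in Ifnar -/-, Flt3 +/+ HPC and from 0.507 to 2.71 RPKM in Ifnar +/-, Flt3 ITD/+ HPC. The lowest library of each thus lay within the P14 range of the age series. In Ifnar -/-, Flt3 ITD/+ HPC it ran from 0.812 to 9.06 RPKM. What sets these P14 libraries apart was not tested. Reads of Y-linked genes appeared in all 4 Adult HPC libraries and in 3 of the 5 at P14. Committed progenitor markers summed to 1038 to 1281 RPKM in Adult and 1616 to 8831 RPKM at P14, with 4 of 5 lower. Endothelial markers, of cells that also make Vwf and Selp, summed to 6.844 to 11.16 RPKM in Adult and 1.21 to 2.804 RPKM at P14, with Tie1 higher and Cdh5 lower of 7 tested. Erythroid markers summed to 13.55 to 31.53 RPKM in Adult and 2.471 to 6.895 RPKM at P14, with Car1 higher of 7 tested. Hepatocyte and stroma marker sums were also higher in Adult without overlap, and the part of these lists in the results was not tested.

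Itgb3 in HPC had 1.4, 0.922, 1.15 and 0.933 RPKM in Adult, against 0.187, 0.347, 0.597, 0.650 and 0.372 RPKM at P14. The ranges did not overlap, and the log2 fold change was 1.13 ± 0.35 (edgeR adjusted p = 0.0216). The call was lost without the first Adult library (adjusted p = 0.073), the first P14 library (0.0568) or the second P14 library (0.0519). Gp9 in HPC had 19.9, 44.0, 28.3 and 41.1 RPKM in Adult, against 91.8, 63.1, 57.8, 73.5 and 79.6 RPKM at P14. Its Adult libraries were all lower, with a log2 fold change of -1.37 ± 0.20 (adjusted p = 5.13e-05).

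Selp moved at every step of the HPC series. It had 3.08, 1.91 and 3.35 RPKM at E16.5, 6.48, 7.46, 5.41 and 6.82 at P0, and 2.54, 2.12, 2.79 and 1.33 at P7. P0 was above E16.5 and P7 below P0 without overlap, with log2 fold changes of 1.25 ± 0.26 (edgeR adjusted p = 0.00736, and 0.064 without the second E16.5 library) and -1.61 ± 0.23 (adjusted p = 0.00049), and P14 lay below P7 by -2.29 ± 0.24 (adjusted p = 1.3e-05). It was the 1 gene of the 8 called for P0 over E16.5, where 3.27% of all genes were called (2.58% higher and 0.691% lower). It was also the 1 called for P7 over P0 (1.5% of all genes, 0.583% higher and 0.922% lower) and for P14 over P7 (9.84% of all genes, 4.79% higher and 5.06% lower). Cell type markers shifted too. Mast cell and basophil markers summed to 15.09 to 54.26 RPKM at E16.5, 391.3 to 2792 at P0 and 79.41 to 179.8 at P7. Endothelial sums overlapped at those steps, and fell from 3.443 to 5.899 RPKM at P7 to 1.21 to 2.804 RPKM at P14. Other lists also shifted without overlap at some steps, and the part of these shifts in the Selp results was not tested.

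Between Adult and E16.5 HPC, Selp was higher (15% of all genes) and Gp9 and Vwf were lower (12%) by edgeR, with 27% of all genes called. Gp9 had a log2 fold change of -1.54 ± 0.22 (adjusted p = 2.08e-05), Selp of 0.77 ± 0.25 (adjusted p = 0.0274) and Vwf of -1.41 ± 0.40 (adjusted p = 0.0115). The first E16.5 HPC library stood apart, with 7.11 RPKM of Itga2b against 0.539 and 2.02 in the others, 9.89 RPKM of F2rl2 against 1.29 and 2.22, and 1.72 RPKM of Itgb3 against 0.586 and 0.462. Without it, Itga2b was higher in Adult by a log2 fold change of 2.05 (adjusted p = 0.00118, against 0.65 and 0.319 with it), F2rl2 turned from -0.46 (adjusted p = 0.447) to 0.92 (adjusted p = 0.0409), and Vwf was no longer called (-0.94, adjusted p = 0.116). The Selp call was lost without the second E16.5 library (0.57, adjusted p = 0.172) and without the second or the fourth Adult library (adjusted p = 0.0639 and 0.075).

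Platelet gene lists were also counted in HPC between Adult and P14, where 14.9% of all genes were called higher and 14% lower. Of 11 tested receptors 0 were higher and 2 lower (P2ry12 at -1.90 and Cd9 at -0.64), of 9 granule genes 2 were higher and 3 lower, of 17 cytoskeletal and signalling genes 1 was higher and 3 lower, and of 10 transcription factors 2 were higher and 2 lower. Thbs1, an alpha granule glycoprotein, rose by a log2 fold change of 3.93 and Serpine2 fell by 2.59.

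Vwf separated the cell types at every age. It had 4.83, 3.01, 4.91 and 4.96 RPKM in Adult HSC, against 0.264, 0.238, 0.204 and 0.406 RPKM in Adult HPC, and 4.158, 5.199, 6.567 and 5.797 RPKM in E16.5 HSC, against 1.04, 0.506 and 0.444 RPKM in E16.5 HPC. At none of the 5 shared ages did the ranges overlap, and the log2 fold changes of HSC over HPC were 2.31 ± 0.21 at E16.5, 2.45 ± 0.19 at P0, 2.79 ± 0.19 at P7, 2.64 ± 0.18 at P14 and 2.64 ± 0.19 in Adult (SE, limma on log2(RPKM + 0.5)). The added 0.5 understates these folds, as Vwf was low in HPC, with a mean of 0.17 RPKM at P14 against 3.90 RPKM in HSC. They cannot be set beside edgeR folds on counts. The same holds for other low genes in these contrasts between cell types. The adjusted p ran from 1.11e-15 at P14 to 1.05e-11 at E16.5. Endothelial markers also separated the cell types at each of these ages, with 28.14 to 55.67 RPKM in HSC and 1.21 to 11.16 RPKM in HPC over the 5 ages. Of 5 of them tested, 4 were higher in HSC at E16.5, 3 at P0, 5 at P7, 4 at P14 and 2 in Adult, none was lower, and Cldn5 was at 0 in all E16.5 HPC libraries. Their part in the Vwf difference was not tested.

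The genes called higher beside Vwf differed between ages. At E16.5, Selp and Vwf were the 2 of 7 genes higher in HSC, where 12.7% of 14287 genes were called higher. Gp9, Pf4 and Vwf were the 3 higher at P0 (20.2% of all genes), and Gp9, Itga2b, Selp and Vwf the 4 higher at P7 (20%). At P14 6 were higher (18%), F2rl2 being the exception, and in Adult 5 were, Gp9, Itga2b, Itgb3, Pf4 and Vwf (12.9%). None of the 7 was called lower in HSC at any of these ages with all libraries. Without the second E16.5 HPC library Itga2b was lower in HSC at E16.5 (-0.96, adjusted p = 0.0376), and without the second P7 HSC library F2rl2 was lower at P7 (-1.42, adjusted p = 0.0148). In Adult, Itgb3 had 8.65, 7.98, 8.79 and 13.2 RPKM in HSC, against 1.4, 0.922, 1.15 and 0.933 RPKM in HPC, and Pf4 had 83.0, 73.3, 97.9 and 106 RPKM in HSC, against 8.81, 24.1, 23.9 and 27.7 RPKM in HPC. Neither overlapped, with log2 fold changes of 2.65 ± 0.25 for Itgb3 (limma adjusted p = 1.49e-11) and 2.19 ± 0.34 for Pf4 (adjusted p = 4.38e-06). Reads of Y-linked genes appeared in 0 of 4 Adult HSC and 4 of 4 Adult HPC libraries, so sex and cell type cannot be told apart in Adult, in this contrast or in the difference of the age changes between cell types. The Itga2b call at P7 (0.77 ± 0.32, adjusted p = 0.0478) was lost without any of 7 single libraries (adjusted p = 0.0535 to 0.174), and the Selp call (0.76 ± 0.24, adjusted p = 0.00972) without the fourth HPC library (0.074).

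The change from E16.5 to Adult differed between the cell types for 5 of the 7 genes, tested as the difference itself by limma. The difference, HSC minus HPC on the log2 scale, was 2.96 ± 0.37 for Itgb3 (adjusted p = 2.6e-07), 2.97 ± 0.51 for Pf4 (adjusted p = 0.000149), 1.51 ± 0.24 for Gp9 (adjusted p = 3.66e-05) and 1.98 ± 0.47 for Itga2b (adjusted p = 0.00685), and it was -1.37 ± 0.35 for Selp (adjusted p = 0.0133). Over all genes tested, 1.92% had a called positive difference and 2.29% a negative one. For Itga2b the call was lost when only the 4 groups were fitted (adjusted p = 0.0938), and the difference was 1.22 without the first E16.5 HPC library (adjusted p = 0.0771), and for Selp it was -1.18 without the second (adjusted p = 0.0792).

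At P0 the cell types were sequenced in both tables, and Pf4 went opposite ways. In the age table Pf4 had 29.2, 20.9, 33.6 and 26.1 RPKM in HSC, against 9.72, 14.3, 12.5 and 9.06 RPKM in HPC. In the genotype table its wild type libraries had 21.3, 18.1, 18.7, 10.74 and 18.01 RPKM in HSC, against 31.0, 39.1, 38.9 and 18.1 RPKM in HPC. HSC were higher without overlap in the age table, with a log2 fold change of 1.14 ± 0.34 (limma adjusted p = 0.00766), and lower in the genotype table, with -0.87 ± 0.24 (edgeR adjusted p = 0.00726). In the genotype table the run codes in the titles differ between the cell types, and run and cell type cannot be told apart. Sex was uneven there too, with reads of Y-linked genes in all 5 wild type HSC and 2 of the 4 wild type HPC libraries. In the age table they appeared in all 4 P0 libraries of each cell type. There, Vwf (4.28 ± 0.23, adjusted p = 5.32e-09), Clec1b (1.92 ± 0.65, adjusted p = 0.0226) and Selp (0.69 ± 0.28, adjusted p = 0.0494) were higher in HSC (29.9% of all genes) and Pf4, Itga2b (-0.71 ± 0.20, adjusted p = 0.0102) and F2rl2 (-1.20 ± 0.40, adjusted p = 0.0196) lower (26.3%). The Selp call was lost without any of 8 of the 9 libraries (adjusted p = 0.0582 to 0.138), the Clec1b call without the first wild type HPC library (0.0663) and the F2rl2 call without the second or the third (0.0659 and 0.0631).

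In P0 HPC, libraries labelled Ifnar -/- carried about 4 to 7 times more RNA of 6 of the 8 tested genes than wild type. The question of this comparison was what loss of the type I interferon receptor changes in newborn cells. Itga2b, Itgb3, Pf4, Vwf, F2rl2 and Clec1b were higher and none was lower by edgeR, where 4.97% of 12988 genes were called higher and 5.4% lower. The median log2 fold change was 2.07 over the 8 genes and 0.01 over all genes.

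Itga2b had 35.7, 45.6, 32.9 and 12.6 RPKM in Ifnar -/- HPC, against 5.90, 10.4, 6.80 and 6.54 RPKM in wild type HPC. Itgb3 had 8.91, 15.3, 4.57 and 3.05 RPKM in Ifnar -/- HPC, against 1.35, 3.20, 1.57 and 2.18 RPKM in wild type HPC. The groups did not overlap for Itga2b and overlapped for Itgb3 through 1 library of each. The log2 fold changes were 2.04 ± 0.31 for Itga2b (edgeR adjusted p = 0.00131) and 1.88 ± 0.43 for Itgb3 (adjusted p = 0.0151). The Itgb3 call was lost without the first wild type library (adjusted p = 0.061) or the third (adjusted p = 0.0591).

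Pf4 had 236, 176, 104 and 65.1 RPKM in Ifnar -/- HPC, against 31.0, 39.1, 38.9 and 18.1 RPKM in wild type HPC. Vwf had 2.06, 1.80, 1.44 and 1.30 RPKM in Ifnar -/- HPC, against 0.379, 0.484, 0.340 and 0.262 RPKM in wild type HPC. Both were higher in 4 of 4 Ifnar -/- libraries, with log2 fold changes of 2.13 ± 0.36 for Pf4 (edgeR adjusted p = 0.0026) and 2.11 ± 0.23 for Vwf (adjusted p = 9.97e-05). Vwf in Ifnar -/- HPC still lay below every HSC library of that age in the same table, where it ran from 4.63 to 8.98 RPKM.

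F2rl2 had 23.6, 26.8, 10.5 and 5.04 RPKM in Ifnar -/- HPC, against 1.61, 4.47, 4.21 and 2.74 RPKM in wild type HPC. Clec1b had 42, 26, 30 and 14 reads in Ifnar -/- HPC, against 2, 6, 0 and 8 reads in wild type HPC. Neither overlapped, and the log2 fold changes were 2.28 ± 0.46 for F2rl2 (edgeR adjusted p = 0.00817) and 2.84 ± 0.66 for Clec1b (adjusted p = 0.0169). Iqgap2, which spans F2rl2, had a log2 fold change of 0.16 (adjusted p = 0.383). The Clec1b call was lost without the first wild type library (adjusted p = 0.0688). The fourth Ifnar -/- library had the lowest RPKM of its group for all 6 genes.

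Gp9 and Selp did not follow. Gp9 had 85.6, 105, 140 and 118 RPKM in Ifnar -/- HPC, against 105, 104, 112 and 75.8 RPKM in wild type HPC. Selp had 6.40, 9.90, 6.78 and 5.21 RPKM in Ifnar -/- HPC, against 4.79, 6.91, 5.43 and 7.57 RPKM in wild type HPC. The groups overlapped for both, with log2 fold changes of 0.11 ± 0.17 for Gp9 (adjusted p = 0.721) and 0.13 ± 0.21 for Selp (adjusted p = 0.732).

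Other genes of the lineage were counted in the same libraries, where 4.97% of all genes were called higher and 5.4% lower. Of 12 tested platelet receptors 5 were higher, led by F2r (1.63), Gp1ba (1.25) and P2ry1 (1.4), and P2ry12 was lower (-1.75). Of 9 granule genes 4 were higher, led by Timp3 (2.41), Mmrn1 (0.59) and Thbs1 (2.95), and F13a1 was lower (-1.06). Of 17 cytoskeletal and signalling genes Cavin2 was higher (2.71) and Fcer1g lower (-0.86), and of 10 transcription factors Gata1 (1.66), Gata2 (1.05) and Runx1 (0.51) were higher.

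Erythroid markers summed to 88.1 to 355 RPKM in Ifnar -/- HPC and 19.6 to 35.0 RPKM in wild type HPC, with 4 of 5 tested higher. Mature megakaryocyte and platelet markers summed to 19.5 to 33.4 RPKM in Ifnar -/- HPC and 6.25 to 16.4 RPKM in wild type HPC, with 3 of 5 higher and none at 0 throughout. Endothelial markers summed to 17.6 to 21.5 RPKM in Ifnar -/- HPC and 7.547 to 9.003 RPKM in wild type HPC, with Tie1 and Cldn5 higher of 5 tested. Committed progenitor markers summed to 550 to 768 RPKM in Ifnar -/- HPC and 1179 to 1406 RPKM in wild type HPC, with 4 of 5 lower. B cell markers summed to 0.738 to 2.89 RPKM in Ifnar -/- HPC and 9.41 to 18.6 RPKM in wild type HPC, with 3 of 3 lower. Macrophage markers summed to 17.15 to 44.72 RPKM in Ifnar -/- HPC and 49.49 to 63.07 RPKM in wild type HPC, with 2 of 6 lower. Hepatocyte markers summed to 6.577 to 9.481 RPKM in Ifnar -/- HPC and 10.05 to 13.32 RPKM in wild type HPC, with 0 of 4 called. Of the 8 HSC markers 5 were higher and Ly6a, which interferon induces, was lower. Reads of Y-linked genes appeared in all 4 Ifnar -/- and in 2 of the 4 wild type libraries, and the part of all these shifts in the results was not tested.

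**Figure D3:**
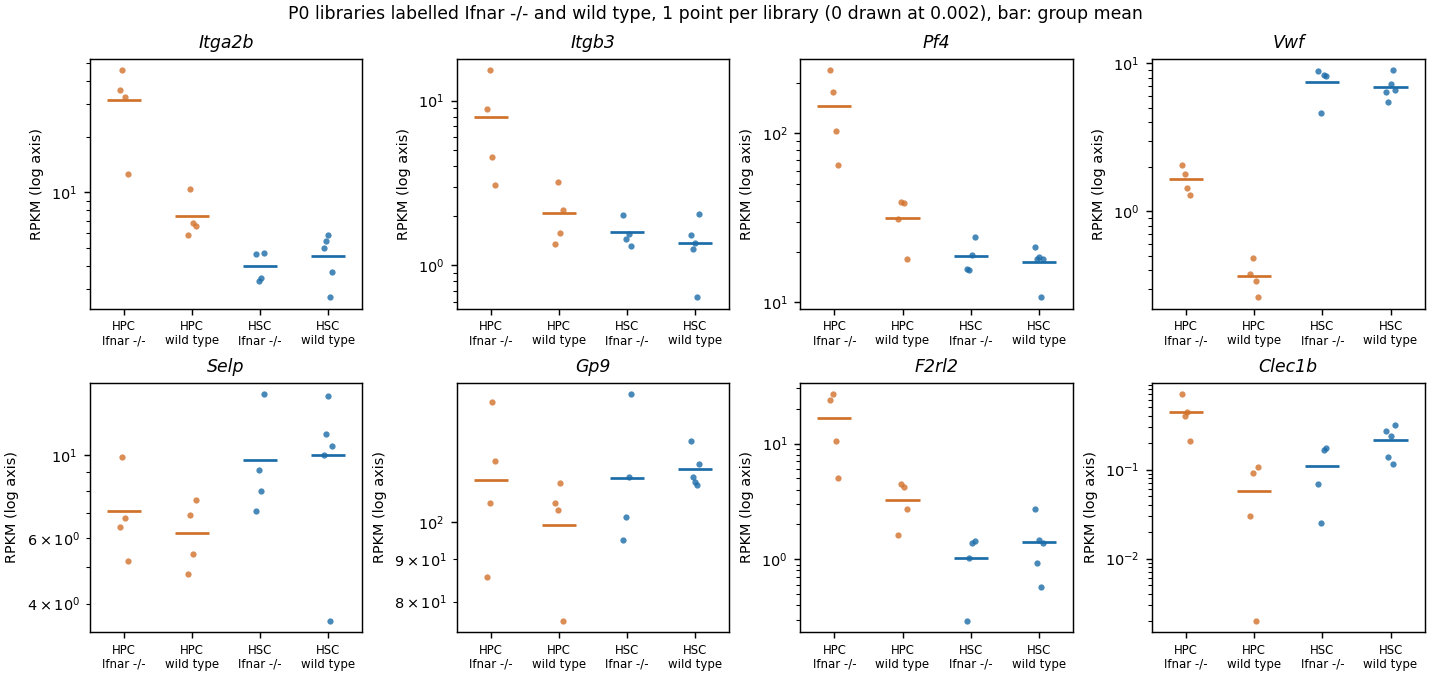
Level of 8 of the genes in RPKM (log axis) in the P0 libraries labelled Ifnar -/- and wild type, in HPC (orange) and HSC (blue), 1 point per library with a bar at the group mean. In HPC 6 genes were higher in Ifnar -/-, while in HSC the genotypes overlapped for all 8.

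In P0 HSC none of the 8 tested genes was called by edgeR between Ifnar -/- and wild type, where 1.14% of all genes were called. At an unadjusted p under 0.05 the count was also 0, and DESeq2 called 0. Pf4 had 15.8, 15.6, 19.1 and 24.5 RPKM in Ifnar -/- HSC, against 21.3, 18.1, 18.7, 10.74 and 18.01 RPKM in wild type HSC. Itga2b had 4.64, 3.29, 3.45 and 4.66 RPKM in Ifnar -/- HSC, against 4.999, 5.41, 5.88, 2.70 and 3.71 RPKM in wild type HSC. Both genes overlapped between the genotypes, with log2 fold changes of 0.12 ± 0.20 for Pf4 and -0.16 ± 0.20 for Itga2b. From the list of 17 cytoskeletal and signalling genes Cavin2 was lower in Ifnar -/- HSC (-1.12). From the list of 10 transcription factors Gata1 (-1.76) and Gfi1b (-1.86) were lower. Over all genes, 0.931% were called lower and 0.21% higher in this contrast.

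The genotype effects of HPC and HSC differed for 4 of the 8 genes, by an interaction test in edgeR that was added after the values were seen. The effect in HPC minus that in HSC was 2.18 ± 0.39 for Itga2b (adjusted p = 0.00545), 2.00 ± 0.43 for Pf4 (adjusted p = 0.0179), 2.00 ± 0.30 for Vwf (adjusted p = 0.00129) and 3.86 ± 0.90 for Clec1b (adjusted p = 0.0293). Over all 17191 genes 1.02% were called positive and 0.686% negative. The Clec1b call was lost without any of 5 single libraries (adjusted p = 0.0505 to 0.0761), and the Pf4 call without the second Ifnar -/- HPC library (adjusted p = 0.0508). As cell types and runs coincide in this table, a difference by run cannot be told apart from one by cell type.

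At P14, few of these genes differed between the Flt3 and Ifnar genotypes of HPC. With Flt3 ITD in Ifnar +/- HPC, Itgb3 was higher (2.62% of 17464 genes) and Gp9 lower (2.23%) by edgeR, with 4.84% of all genes called. Itgb3 had 1.77, 0.927, 1.61 and 1.09 RPKM in Ifnar +/-, Flt3 ITD/+ HPC, against 0.326, 0.793, 0.175 and 0.504 RPKM in Ifnar +/-, Flt3 +/+ HPC. Gp9 had 50.8, 40.3, 43.7 and 46.6 RPKM with the ITD, against 54.5, 69.1, 126 and 89.8 RPKM without it. Neither overlapped, and the log2 fold changes were 1.56 ± 0.38 for Itgb3 (edgeR adjusted p = 0.0281) and -1.02 ± 0.27 for Gp9 (adjusted p = 0.0404). Itgb3 lost its call without any of 5 of the 8 libraries (adjusted p = 0.0636 to 0.0952), Gp9 without any of 6 (adjusted p = 0.0718 to 0.159), and both when only these groups were fitted (0.101 and 0.144).

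Itga2b showed values in the same direction as its partner, 5.54, 2.71, 4.80 and 1.84 RPKM with the ITD in Ifnar +/- HPC, against 1.15, 2.40, 0.705 and 1.33 RPKM without it. They overlapped, and the log2 fold change of 1.37 ± 0.41 did not pass in edgeR (adjusted p = 0.06), while DESeq2 called it (1.35, adjusted p = 0.0126). Without the second Ifnar +/-, Flt3 +/+ library, which had the 2.40 RPKM, edgeR called it too (1.70, adjusted p = 0.00745).

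Among Flt3 ITD/+ HPC, Itgb3 was lower in Ifnar -/- than in Ifnar +/- (1.92% of all genes lower). It had 0.383, 0.599, 0.681, 0.454 and 0.261 RPKM in Ifnar -/-, Flt3 ITD/+ HPC, all below the Ifnar +/-, Flt3 ITD/+ values above. The log2 fold change was -1.55 ± 0.35 (edgeR adjusted p = 0.0174), and the call was lost without the first or the third Ifnar +/-, Flt3 ITD/+ library (adjusted p = 0.0715 and 0.0665) or the fifth Ifnar -/- library (adjusted p = 0.0513). Itga2b went the same way with overlap and did not pass in edgeR (-1.23, adjusted p = 0.0863), while DESeq2 called it (-1.23, adjusted p = 0.0204). Without the third Ifnar -/-, Flt3 ITD/+ library edgeR called it too (-1.58, adjusted p = 0.0243). This contrast shares its Ifnar +/-, Flt3 ITD/+ libraries with the one before. Committed progenitor markers summed to 919.5 to 1213 RPKM in Ifnar -/-, Flt3 ITD/+ HPC and 1374 to 2181 RPKM in Ifnar +/-, Flt3 ITD/+ HPC, with 1 of 5 lower. Mast cell and basophil markers summed to 3.846 to 15.04 RPKM in Ifnar -/- and 26.13 to 61.73 RPKM in Ifnar +/-, with 1 of 3 lower. Erythroid markers summed to 29.27 to 132.7 RPKM in Ifnar -/- and 12.83 to 21.88 RPKM in Ifnar +/-, with 0 of 7 called. Neutrophil markers summed to 5.054 to 9.048 RPKM in Ifnar -/- and 2.062 to 3.567 RPKM in Ifnar +/-, with 1 of 4 higher. Hepatocyte sums were also higher and stroma sums lower in Ifnar -/- without overlap, and the part of these lists in the result was not tested. For the ITD in Ifnar +/- HPC every marker list of another cell type overlapped between the groups, though medians differed. Committed progenitor markers summed to 1374 to 2181 RPKM with the ITD (median 1673) and 730.7 to 5032 RPKM without it (median 941.5). Stroma markers summed to 8.999 to 14.2 RPKM with it and 1.449 to 9.001 RPKM without it. Erythroid medians were 19.29 RPKM with it and 56.87 RPKM without it. The part of these lists was not tested.

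**Figure D4:**
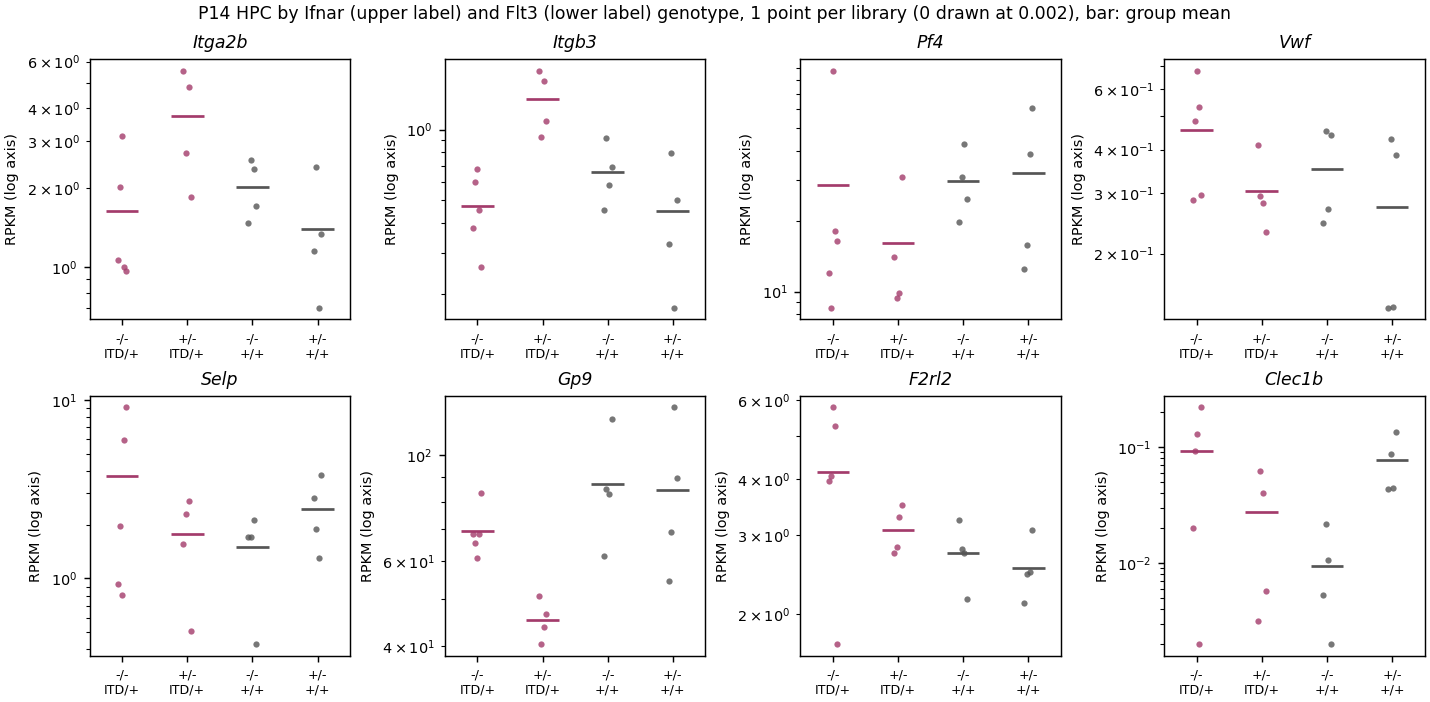
Level of 8 of the genes in RPKM (log axis) in P14 HPC by Ifnar genotype (upper label) and Flt3 genotype (lower label), 1 point per library with a bar at the group mean. Itgb3 was highest in Ifnar +/-, Flt3 ITD/+ HPC, where Gp9 was lowest.

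The remaining P14 contrasts called none of the 8 genes by edgeR. With the ITD in Ifnar -/- HPC, where 0.962% of all genes were called, 3 genes had an unadjusted p under 0.05, and DESeq2 called 1. For Ifnar -/- in Flt3 +/+ HPC (4.39% of all genes) 1 gene was under an unadjusted 0.05 and DESeq2 called 0, and for both mutations against neither (1.88%, 0.991% higher and 0.888% lower) 1 was and DESeq2 called 0. The interaction of the mutations (0.0115% of all genes) gave -1.99 ± 0.51 for Itgb3 (adjusted p = 0.0872) and -1.62 ± 0.56 for Itga2b (adjusted p = 0.0913), and DESeq2 called both, at adjusted p = 0.00884 and 0.0371. By edgeR 3 of the 8 genes had an unadjusted p under 0.05 for the interaction.

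Gp9 stood far above its partners in the GPIb-IX-V complex. Per exon length, Gp9 averaged 118 RPKM in Adult HSC while Gp1ba, which binds Vwf, averaged 6.84, Gp5 1.17 and Gp1bb 0.235 RPKM, and at E16.5 Gp9 averaged 119, Gp1ba 4.51, Gp5 0.0422 and Gp1bb 0 RPKM. In HPC the order was the same, with 33.3 RPKM of Gp9 in Adult against 1.65 of Gp1ba, 0.204 of Gp5 and 0.0289 of Gp1bb. No range of Gp9 overlapped that of a partner in any group of the age series. The exon length used for Gp9, 811 bases, came from the steps of the deposited RPKM and not from the annotation.

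**Figure D5:**
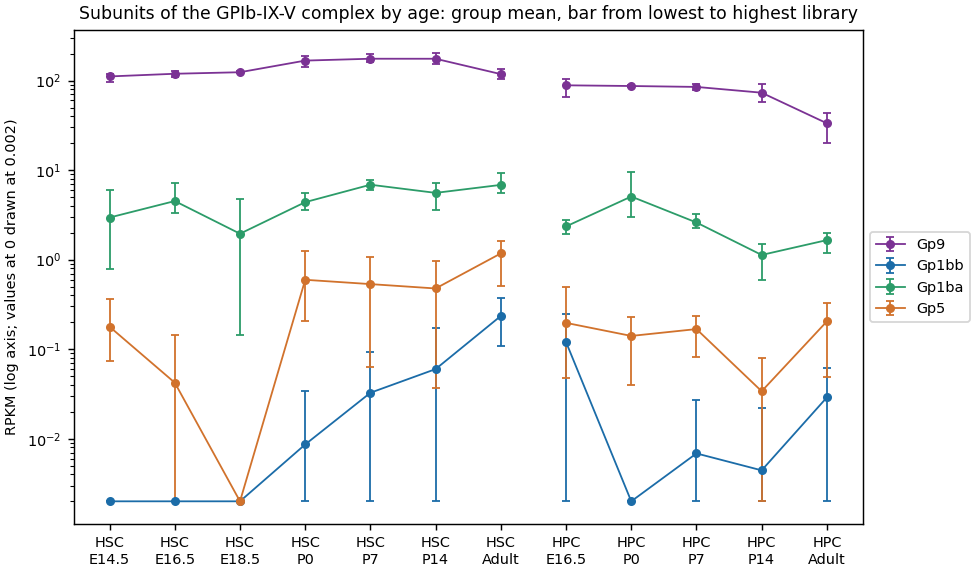
Mean RPKM (log axis) of the 4 genes of the GPIb-IX-V complex by age in HSC and HPC, with bars from the lowest to the highest library. Gp9 lay above Gp1ba, Gp5 and Gp1bb in every group.

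Genes whose HSC age means were most like the mean standardised profile of the 7 genes over the 7 ages were Acadl, with a Pearson r of 0.985, Otos (0.982), Cbr2 (0.979), H2-Q2 (0.979) and Prkar2b (0.976). These are descriptions over 7 points that share libraries, and H2-Q2 belongs to a family of near-identical genes whose reads may be split between members. Cbr2 and H2-Q2 were near the floor. On the log2(RPKM + 0.5) scale, where 0 RPKM gives -1, Cbr2 averaged -1 at E14.5, E16.5 and E18.5 and 0.677 in Adult. H2-Q2 averaged -1 at E14.5 and 0.459 in Adult. Among the 7 genes themselves, Itga2b, Itgb3 and Pf4 were alike over age (Pearson r from 0.796 to 0.94), while Selp had an r of -0.011 with Itga2b and -0.493 with Pf4, and Gp9 one of -0.089 with Itga2b.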

How the data were processed

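RNA was prepared with a Qiagen micro plus kit and a Clontech kit, per the labels' protocols, and STAR 3.0.4 and featureCounts 1.4.5 of Subread are named as tools in the submitters' processing notes. Which build and annotation served for counting is not given in the sources used here. In the table of ages, the authors deposited raw counts per gene for HPC and RPKM values for HSC, although that table is named as counts. The table of genotypes holds raw counts as the authors deposited them. In the age table, 1 column belonged to no sample and was not used, and 2 rows that name no mouse gene held at most 0.000144% of reads.

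Gene lengths were recovered from the steps of the RPKM values. With them 100% of nonzero HSC values became whole reads within a tolerance of 1e-05, and the recovered reads summed to between 100.0004% and 100.0024% of the totals that the RPKM imply. Lengths came from the GENCODE M21 annotation for 16638 of 25622 detected genes and from the values for 8984, Pf4, Gp9 and Gp6 among them. RPKM for HPC and for the genotype libraries were computed from the counts with the same lengths.

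HSC ages, and HSC against HPC by age, were tested with limma 3.58.1 (trend, robust) on log2(RPKM + 0.5) after TMM scaling, over genes with more than 1 RPKM in at least as many libraries as the smallest group. For counts, edgeR 4.0.16 (TMM, filterByExpr, R 4.3.3) gave quasi-likelihood F-tests. All libraries of a set shared 1 fit, tests were two-sided, and p-values were Benjamini-Hochberg adjusted over all genes tested, with a threshold of 0.05. Every ± after a log2 fold change is its standard error. Alternatives included DESeq2 1.42.0, edgeR and DESeq2 on the recovered HSC reads, other scaling, filters and pseudocounts, only the groups compared, a replicate block, and leaving out each library. The fits were tested on simulated data with known changes.

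Members were named in all comparisons, and other genes as up to 4 called members of each list by smallest adjusted p. The members and lists were chosen with earlier results of these data known. A few genes of these lists are not reported here and enter no list count. Depth was 6.95 to 92.1 M reads, and a count of 0 allows up to 3 reads, for counting error only. Libraries were not treated as paired by replicate number: of 26 comparisons checked, 0 had every same-numbered pair correlated above 0.1 (r from -0.423 to 0.444). This does not decide whether some were paired. In HSC against HPC at P14, the ITD in Ifnar +/- and both mutations against neither, 3 of 4 pairs were above 0.1.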

Additional observations from a re-analysis of the deposited data

Results flagged for a closer look

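Single libraries stood apart from the rest of their group in 9 of 131 sets tested, each 1 gene in 1 group of 4 or 5 libraries, by the gap of the highest or lowest library relative to the group's range, where chance gives about 1 in 20. In HSC, Itga2b was 5.6 RPKM in the second P14 library against 3.41 to 3.75 RPKM in the others, and Pf4 was 116.1 RPKM in the third P14 library against 42.97 to 50.18 RPKM. Itgb3 was 13.25 RPKM in the fourth Adult HSC library against 7.98 to 8.79 RPKM, and Vwf was 3.013 RPKM in the second Adult HSC library against 4.83 to 4.96 RPKM. Vwf was also low, at 4.628 RPKM, in the second Ifnar -/- P0 HSC library, against 8.2 to 8.89 RPKM in the others. In HPC, Pf4 was 21.05 RPKM in the fourth P7 library (others 11.7 to 13.2 RPKM) and 87.54 RPKM in the third Ifnar -/-, Flt3 ITD/+ P14 library (others 8.56 to 18.2 RPKM). Clec1b was 0.1313 RPKM in the second P7 HPC library and 0.0386 RPKM in the second P14 HPC library, with the others at or below 0.0232 RPKM at P7 and 0.00817 RPKM at P14.

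Effects that differed between cell types by a test of the difference itself form 2 groups. The log2 change from E16.5 to Adult, HSC minus HPC, was 1.98 for Itga2b, 2.965 for Itgb3, 2.967 for Pf4, -1.375 for Selp and 1.51 for Gp9 (limma). The log2 effect of Ifnar -/- at P0, HPC minus HSC, was 2.18 for Itga2b, 1.998 for Pf4, 2.005 for Vwf and 3.864 for Clec1b (edgeR).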

How the results depend on the processing

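Of 3288 values of single genes under alternative settings, 3174 kept their direction and side of the threshold or were not called in either, 76 lost a call, 37 gained one and 1 turned round past the threshold, F2rl2 in HPC for Adult over E16.5 (from -0.918 to 0.922 when 1 library was left out, the highest without the first at E16.5). Another 107 values that were not called had the other sign. The cause of these changes was not tested, beyond there being fewer libraries or genes in some fits. With no low-value filter, 1 of the 9 genes was called for P0 over E18.5 HSC in place of 2. With recovered reads 1 was called there by edgeR, and 2 in place of 1 for E18.5 over E16.5 by edgeR and by DESeq2. Fitting only the groups compared gave 0 in place of 2 for P0 over E18.5 HSC, 1 in place of 2 for P14 over P7 HSC, 3 in place of 1 for P7 over P0 HPC and 2 in place of 1 for P14 over P7 HPC. At P14 it gave 0 in place of 2 for the ITD in Ifnar +/- and 2 in place of 1 for Ifnar -/- in Flt3 ITD/+. DESeq2 gave 1 in place of 0 for the ITD in Ifnar -/-, 2 in place of 1 for Ifnar -/- in Flt3 ITD/+ and 2 in place of 0 for the interaction at P14.

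The fits reported did not treat libraries as paired by replicate number. With a replicate block, 1 gene in place of 0 was called for both mutations against neither (F2rl2, 0.77), for the ITD in Ifnar -/- (F2rl2, 0.83) and for Ifnar -/- in Flt3 +/+ (Clec1b, -3.95). Itga2b gained a call for the ITD in Ifnar +/- (adjusted p = 0.0485). Calls lost with the block were Itgb3 for Adult over P14 HPC (0.99, adjusted p = 0.078), Itga2b at P7 between cell types (0.0522), Selp and Clec1b between P0 wild type cell types (0.216 and 0.123), Clec1b for Ifnar -/- in P0 HPC (0.0576) and Clec1b in the P0 difference of effects (0.0835). No other call of these genes changed with it.

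When each library was left out in turn, the number of called genes in the HSC age contrasts ran from 0 to 0 for E16.5 over E14.5 and P7 over P0, 1 to 2 for E18.5 over E16.5, 0 to 2 for P0 over E18.5, 2 to 2 for P14 over P7, 4 to 5 for Adult over P14, 3 to 3 for Adult over E16.5 and 4 to 4 for Adult over P0. In HPC it ran from 0 to 1 for P0 over E16.5, 1 to 1 for P7 over P0, 1 to 2 for P14 over P7, 3 to 4 for Adult over P14 and 2 to 4 for Adult over E16.5. Between cell types it ran from 2 to 3 at E16.5, 3 to 3 at P0, 2 to 4 at P7, 6 to 6 at P14, 5 to 5 in Adult, 4 to 6 at P0 in wild type and 4 to 5 for the difference of the age change. For Ifnar -/- it ran from 4 to 6 in P0 HPC, 0 to 0 in P0 HSC and 2 to 6 for their difference. At P14 it ran from 0 to 3 for the ITD in Ifnar +/-, 0 to 1 for the ITD in Ifnar -/-, 0 to 0 for Ifnar -/- in Flt3 +/+, 0 to 2 for Ifnar -/- in Flt3 ITD/+, 0 to 0 for both against neither and 0 to 3 for the interaction, where all 3 gains came without the second Ifnar +/-, Flt3 +/+ library.

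The number of all genes called also moved by more than 1.5 times under some settings, given here against the number in the fit reported. With no TMM scaling the number was 13 against 7 for E16.5 over E14.5 in HSC. With no filter on low values it was 14 against 7 for E16.5 over E14.5 in HSC, 478 against 731 for E18.5 over E16.5 in HSC and 139 against 229 for P14 over P7 in HSC. With only the groups compared fitted it was 0 against 7 for E16.5 over E14.5 in HSC, 137 against 645 for P0 over E18.5 in HSC, 419 against 789 for P7 over P0 in HSC, 1842 against 2837 for Adult over P0 in HSC, 205 against 483 for P0 over E16.5 in HPC, 645 against 222 for P7 over P0 in HPC, 2665 against 4262 for Adult over P14 in HPC, 157 against 328 for both mutations against neither, 165 against 846 for the ITD in Ifnar +/-, 295 against 168 for the ITD in Ifnar -/-, 42 against 766 for Ifnar -/- in Flt3 +/+ and 1368 against 704 for Ifnar -/- in Flt3 ITD/+. With DESeq2 on recovered reads it was 64 against 7 for E16.5 over E14.5 in HSC, 1122 against 731 for E18.5 over E16.5 in HSC and 394 against 229 for P14 over P7 in HSC. With edgeR on recovered reads it was 3 against 7 for E16.5 over E14.5 in HSC. With a replicate block it was 4 against 7 for E16.5 over E14.5 in HSC, 1524 against 846 for the ITD in Ifnar +/-, 1293 against 766 for Ifnar -/- in Flt3 +/+, 452 against 704 for Ifnar -/- in Flt3 ITD/+ and 0 against 2 for the P14 interaction. With DESeq2 it was 883 against 483 for P0 over E16.5 in HPC, 416 against 222 for P7 over P0 in HPC, 766 against 328 for both mutations against neither, 2597 against 846 for the ITD in Ifnar +/-, 428 against 168 for the ITD in Ifnar -/-, 3023 against 766 for Ifnar -/- in Flt3 +/+, 1387 against 704 for Ifnar -/- in Flt3 ITD/+, 748 against 293 for the P0 difference of effects, 2054 against 1347 for Ifnar -/- in P0 HPC, 336 against 185 for Ifnar -/- in P0 HSC and 2368 against 2 for the P14 interaction. With no filter on low counts it was 12 against 2 for the P14 interaction.

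Depth limits the low genes: Clec1b and Gp6 rest on few reads.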
